A study of Homo sapiens with 14 samples.

Results

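The distal peaks found only with dTAG-V1 are 7841 regions at which ChIP-seq with the Proteintech antibody against ZNF143 gave a peak in cells treated to degrade ZNF143 and none in untreated cells. They were chosen by the peak calls of the deposited lists and by their place in the genome. A peak of the dTAG-V1 list had to share no base with a peak of the untreated list. Its centre also had to lie outside the window from 2 kb upstream to 1 kb downstream of the transcription start site (TSS) of every annotated gene and outside the body of every protein-coding gene. The dTAG-V1 list holds 35287 peaks, of which 20412, or 57.8%, shared no base with the untreated list of 20429 peaks. Among the 11913 distal peaks of that list, 7841 did so, or 65.8%. As the lists chose these regions, both shares are a description and carry no test.

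The cells were HEK293T, a widely used cell line from human embryonic kidney, and their ZNF143 carries the FKBP12F36V degron tag and 2 HA epitopes. The labels name a single clone, HEK_CloneZD29, for every sample. The untreated group consisted of 4 samples without treatment. The dTAG-V1 group consisted of 4 samples with the same tagged ZNF143, treated for 30 min with 0.5 µM dTAG-V1, a small molecule that directs the tagged protein to an E3 ubiquitin ligase for degradation. The series has 14 samples, and its 6 CTCF samples were not analysed here. For each condition there is 1 list of peaks and no value for a single replicate or read count, so that sequencing depth is unknown. No difference between conditions can therefore be set against the spread between replicates. A site of equal signal that sits close to the calling threshold may pass it in a single condition. The methods also name a stricter replicate rule for untreated cells (each of 4 replicates) than for treated cells (any of 4), and whether the lists used here were filtered in this way is not stated.

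ZNF143 is a zinc finger transcription factor that binds the SBS1 and SBS2 sequences, mostly at promoters. CTCF is another zinc finger protein, which recognises a long, non-palindromic motif at many sites away from promoters. Cohesin, the ring complex that extrudes chromatin loops, halts at bound CTCF in a way that depends on the direction of the motif, and the motifs at the ends of a loop mostly point towards each other. The comparison of treated and untreated cells asks which peaks of the antibody depend on ZNF143. For the regions described here, it can be asked which of these motifs they contain.

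A CTCF hit is a match at p 5e-05 to a matrix of 14 positions learned from the other peaks of the dTAG-V1 list, with the most frequent letters CCACcAGggGGCac. An SBS hit is a match to one of the matrices learned in the same way from the untreated list, with the most frequent letters ggGcATTcTGGGAa for SBS1 and aaGGgAtgCTGGGAAaTGTAGTcc for SBS2. Capitals in these 3 strings mark letters present in over 60% of the learned sites. A hit is a stretch of sequence and not a measured binding site. Of the 20 distal dTAG-V1-only peaks with the highest scores, 18 contained a CTCF hit. Of the 10 of these hits with the highest matrix scores, 9 are shown, chosen for the match and not for the height of the peak. Each is given in hg38 with the genes on both sides, the coordinates of the hit, and 15 bases on each side in lower case.
KRT18 to EIF4B, chr12:52980991-52981004, minus strand: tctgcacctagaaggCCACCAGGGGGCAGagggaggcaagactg
NEUROD2 to PPP1R1B, chr17:39622126-39622139, plus strand: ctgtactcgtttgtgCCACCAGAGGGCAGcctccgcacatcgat
TARBP1 to IRF2BP2, chr1:234499239-234499252, plus strand: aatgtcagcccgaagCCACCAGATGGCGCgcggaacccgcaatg
CCDC188 to RTN4R, chr22:20157170-20157183, plus strand: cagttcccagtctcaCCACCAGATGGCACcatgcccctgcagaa
ANKRD18B to PRSS3, chr9:33722245-33722258, minus strand: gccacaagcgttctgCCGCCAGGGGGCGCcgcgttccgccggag
ADAMTS15 to SNX19, chr11:130862164-130862177, minus strand: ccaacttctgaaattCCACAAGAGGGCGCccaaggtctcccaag
OBI1 to RBM26, chr13:78978583-78978596, minus strand: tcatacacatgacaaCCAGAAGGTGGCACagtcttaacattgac
RBM26 to NDFIP2, chr13:79424238-79424251, plus strand: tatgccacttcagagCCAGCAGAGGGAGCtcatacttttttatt
HSPB1 to YWHAG, chr7:76314405-76314418, minus strand: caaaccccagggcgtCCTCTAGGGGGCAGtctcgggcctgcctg

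The hit between KRT18, a keratin of simple epithelia, and EIF4B, a translation initiation factor, had the highest matrix score of these, at 24.1. The hit between NEUROD2, a transcription factor of neurons, and PPP1R1B had a score of 23.4. All 9 lay within 50 bp of the summit of their peak, and the closest, between OBI1 and RBM26, lay 1 bp from it.

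The score of a peak is 10 times the −log10 q-value of the authors' call, and the fold enrichment is that of the summit over the local background. In the 7841 peaks, the score had a median of 93 (quartiles 52 and 154) and ranged from 20 to 879. The fold enrichment had a median of 3.03 and reached 9.36. By score, the highest of these peaks ranked 2399 among the 35287 peaks of the list, and 24 of the 3529 peaks in the highest score decile belonged to this class. In the lowest decile, 1096 of 3528 did. The distal peaks present in both lists (distal shared peaks, 4072) had a median score of 196. Intronic peaks without untreated overlap (8366 intronic dTAG-V1-only peaks) had a median score of 81. Scores are tied to the calls that chose the classes and were not tested.

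The highest score, 879, belonged to a peak of 515 bp between CFAP97D1 and MPP3 on chromosome 17, with a fold enrichment of 9.36. The next, with a score of 844 and a rank of 2442, lay 28.4 kb from the TSS of the serine protease gene PRSS3 on chromosome 9. A peak with a score of 706 lay in the noncoding gene LNC-LBCS, 371 kb from the TSS of ID4, an inhibitor of basic helix-loop-helix transcription factors. These 3 peaks differed in sequence, since the peak near PRSS3 contained a CTCF hit 28 bp from its summit, the peak at CFAP97D1 a weak hit 225 bp away, and the peak near ID4 none. A peak between ADAMTS15 and SNX19 had a score of 617. A peak 28.9 kb from the TSS of XBP1, a transcription factor of the unfolded protein response, had a score of 582. A peak 520 kb from the TSS of the histone demethylase gene JMJD1C had a score of 581. Another 3 of the 10 highest lay between NEUROD2 and PPP1R1B (568), between CCDC188 and RTN4R, the Nogo receptor (562), and between the small heat shock protein gene HSPB1 and YWHAG (562). Of these 10 peaks, 8 contained a CTCF hit at p 1e-05 within 50 bp of the summit.

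CTCF hits were present in 4339 of the 7841 peaks, or 55.3% (95% interval 54.2 to 56.4). In stretches of the same width 1 kb further along the chromosome, 9.96% contained one. In 378655 windows of 400 bp, placed every 4 kb over the 1515 Mb of distal sequence, the share was 8.14%. With hits at p 1e-05, 42.6% of the peaks, 4.16% of the flanking stretches and 3.06% of the windows contained one. Intervals here are 95% Wilson intervals for shares and 95% Newcombe intervals for differences. They cover counting error only, since peaks are not replicates of a condition.

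SBS hits, in contrast, were no more frequent in these peaks than beside them. They were present in 16.0% of the peaks (95% interval 15.2 to 16.8), in 20.6% of the flanking stretches and in 18.2% of the distal windows. At p 1e-05 the shares were 4.22%, 5.83% and 5.17%. With matrices learned from odd-numbered autosomes alone, the SBS share of the peaks was 28.0%, and the flanking stretches were not scanned with these matrices. Of the 7841 peaks, 3600 contained a CTCF hit and no SBS hit, 514 an SBS hit and no CTCF hit, 739 both and 2988 neither. At p 1e-05, 3199 contained CTCF only and 186 SBS only.

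**Figure D1:**
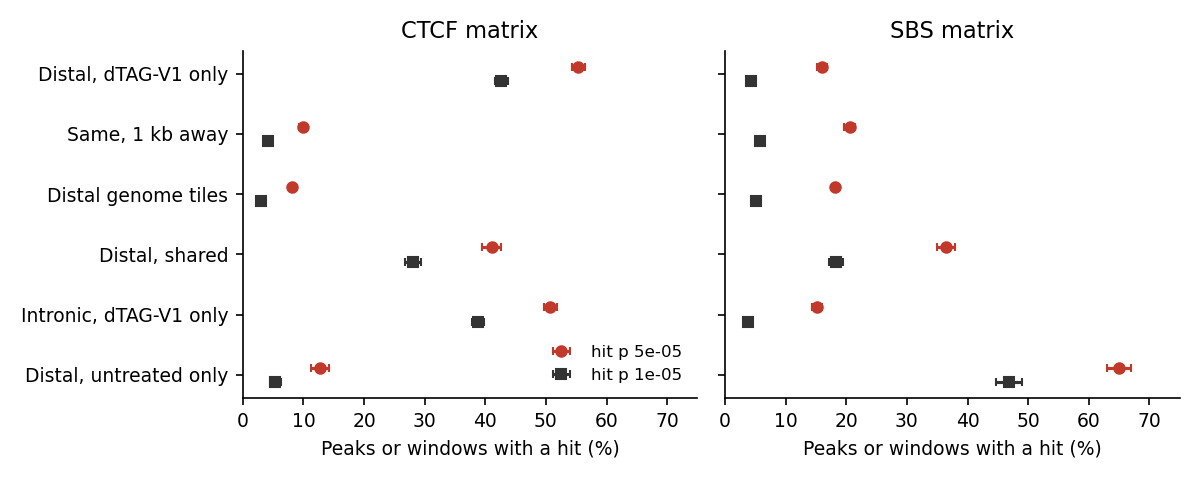
Share of peaks or windows with a CTCF hit (left) and an SBS hit (right), in percent on the x axes, for 6 sets on the y axis. Points are shares and bars are 95% Wilson intervals, with circles for hits at p 5e-05 and squares for hits at p 1e-05. The distal peaks found only with dTAG-V1 have the highest CTCF share, 55.3%, and an SBS share of 16.0%, below the 20.6% of the stretches 1 kb away.

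Among the classes compared, the distal dTAG-V1-only peaks contained CTCF hits more often than distal shared peaks, where 41.0% had one. The difference was 14.3 percentage points (95% interval 12.4 to 16.2). Distal shared peaks were wider, with a median of 509 bp against 341 bp, and in windows of 400 bp around the summit the difference was 17.7 points (95% interval 15.8 to 19.5). Distal peaks found only without treatment (2083) contained a CTCF hit in 12.7%, a difference of 42.7 points (95% interval 40.8 to 44.4). The CTCF matrix was learned from other peaks of the dTAG-V1 list and from no untreated-only peak, so that this contrast may be partly built in. SBS hits went the other way, at 36.4% of the distal shared peaks and 65.0% of the distal untreated-only peaks. The SBS matrices were learned from the untreated list, which holds the untreated-only peaks and overlaps the shared ones. These contrasts are therefore partly built in. The differences were -20.5 points (95% interval -22.2 to -18.8) and -49.0 points (95% interval -51.2 to -46.8). In windows of 400 bp around the summit, they were -13.4 points (95% interval -15.1 to -11.8) and -48.7 points (95% interval -50.8 to -46.4). Against intronic peaks found only with dTAG-V1, the SBS share differed by 0.824 points with an interval that included 0 (95% interval -0.293 to 1.94).

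The CTCF share was also higher than in the intronic dTAG-V1-only peaks, where it was 50.7%, by 4.60 points (95% interval 3.06 to 6.13). When both classes were split by score decile of the list, the distal share was the higher in 7 of the 10 deciles, and the interval of the difference included 0 in each of the 10. The difference was 2.88, 2.65 and 3.16 points in deciles 7, 8 and 9, and 1.97 points in decile 2. It was -2.98 points in decile 3 and -5.83 points in decile 1, with 24 distal and 15 intronic peaks, and in decile 10 both shares were 14.4%. A value pooled over the deciles was not computed, and these intervals do not show that the classes are alike at equal score. With TSS windows of 10 kb on each side, the pooled difference fell to 1.48 points (95% interval -0.403 to 3.36).

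Within the distal dTAG-V1-only peaks, the share with a CTCF hit rose with the score of the peak from decile 10 to decile 2. It was 14.4% in decile 10 (158 of 1096), 37.1% in decile 8, 65.3% in decile 6, 82.7% in decile 4 and 89.2% in decile 2 (437 of 490). In decile 1, 21 of 24 had one, or 87.5% (95% interval 69.0 to 95.7). The 445 hits among the 500 peaks with the highest scores gave 89.0%. SBS hits ranged from 12.1% in decile 10 to 20.7% in decile 3, apart from decile 1 with 2 of 24, and at p 1e-05 were present in at most 5.38% of any decile. In distal shared peaks of the same deciles, the CTCF share was 56.5% in decile 2 and 30.9% in decile 1, and the interval of the difference excluded 0 in deciles 1 to 9. In decile 10 it did not (2.77 points, 95% interval -5.10 to 8.10).

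**Figure D2:**
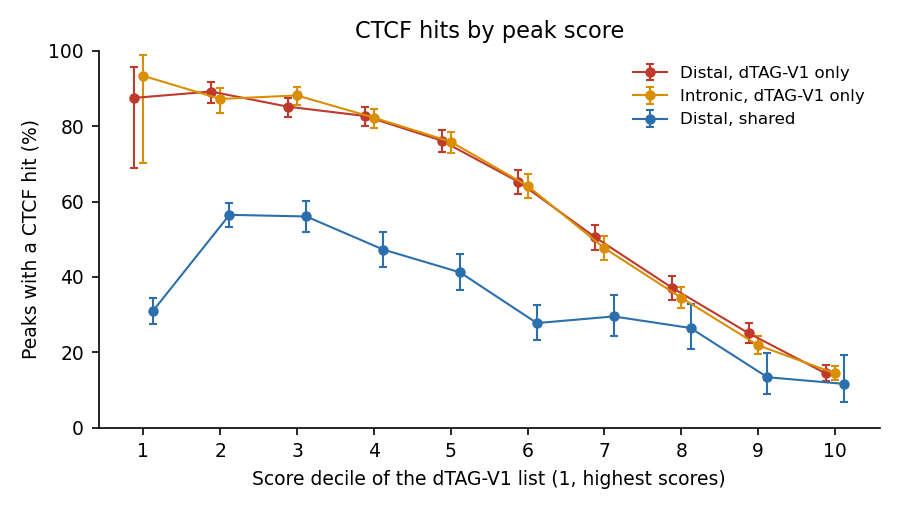
Share of peaks with a CTCF hit at p 5e-05 (y axis, percent) by score decile of the dTAG-V1 list (x axis, 1 being the highest scores) for 3 classes of peaks. Points are shares and bars 95% Wilson intervals. Distal and intronic dTAG-V1-only peaks lie close together, both at 14.4% in decile 10 and at 89.2% and 87.2% in decile 2, and the shares of distal shared peaks lie below them in each decile.

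The strength of the match was set against the peak score as well. Across the 4339 peaks with a CTCF hit, Spearman's rho between the best matrix score and the −log10 q-value was 0.238. Only matrix scores above the hit threshold enter this value. Over all 7841 peaks, with the best match whether or not it was a hit, rho was 0.578. Both values describe peaks that share the same libraries. The median peak score was 115 for the 869 hits with the lowest matrix scores (up to 9.36), 111 for the next 867, and 160 for the 863 with the highest (from 20.9). Peaks without a CTCF hit had a median score of 55.5 and a median fold enrichment of 2.52.

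CTCF hits lay at the summits. Of the 4339 best hits, 3684 were no more than 50 bp from the summit, or 84.9% (95% interval 83.8 to 85.9), where a uniform position in the same peaks would give 28.7%. The median distance was 17 bp. In the intronic dTAG-V1-only peaks, 82.8% of the CTCF hits lay within 50 bp, against 28.6% for a uniform position. In the distal shared peaks, which are wider, 67.9% did, against 20.7% for a uniform position. The position is thus not particular to the distal dTAG-V1-only peaks. In the distal untreated-only peaks 41.7% of 264 did, against 30.6% for a uniform position. SBS2 hits of the distal dTAG-V1-only peaks showed no such position. At p 1e-05, 67 of 263 lay within 50 bp of the summit, or 25.5% (95% interval 20.6 to 31.1), against 25.9% for a uniform position. In the distal untreated-only peaks, 91.3% of 702 such SBS2 hits did. The SBS2 matrix was learned around the summits of the untreated list, these peaks included, so that this position is partly built in.

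**Figure D3:**
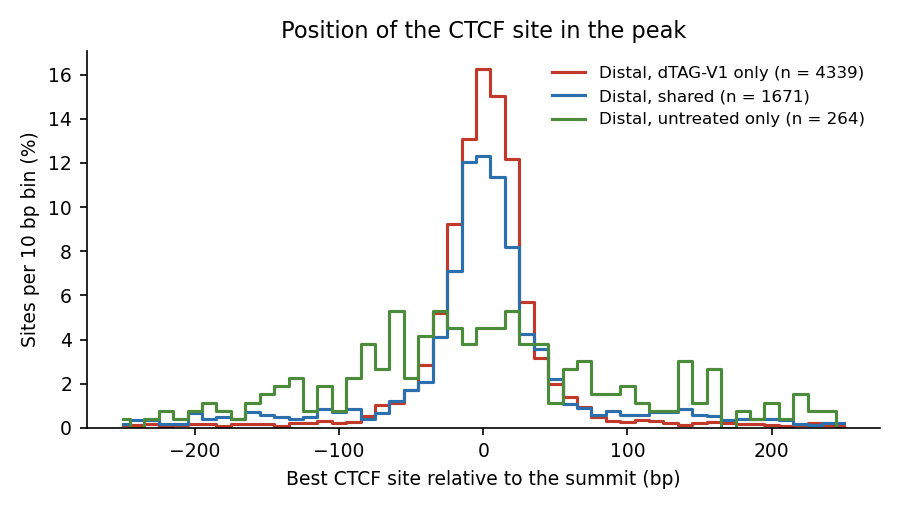
Position of the best CTCF hit relative to the summit of its peak (x axis, bp) as a percentage of all hits per bin of 10 bp (y axis), for 3 classes of distal peaks. The hits of the dTAG-V1-only peaks pile up at the summit, with 84.9% within 50 bp, against 28.7% for a uniform position. Those of the distal shared peaks do so as well, with 67.9% against 20.7%. Of the 264 hits of the untreated-only peaks, 41.7% are within 50 bp, against 30.6% for a uniform position.

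Matches below the threshold were examined as well. Of the 3502 distal dTAG-V1-only peaks without a CTCF hit, 728 had a best match with a matrix score above 0 and under the threshold of 4.43. In 441 of these, or 60.6% (95% interval 57.0 to 64.1), the match lay within 50 bp of the summit, where a uniform position would give 28.6%. For the 2774 peaks with a best match at 0 or below, the share was 32.3%, against 30.0% for a uniform position. Intronic dTAG-V1-only peaks with a match above 0 and under the threshold gave a like value, 57.1%, against 28.2% for a uniform position. Distal shared peaks with such a match gave 29.3%, against 19.8%, and distal untreated-only peaks 33.7%, against 31.8%.

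The 5 peaks with the highest scores among the 2988 with neither a CTCF nor an SBS hit are shown over the 100 bp around their summits. Capitals mark the best match to the CTCF matrix where it had a score above 0.
RNF144B to ID4, chr6:19465878-19465977, plus strand: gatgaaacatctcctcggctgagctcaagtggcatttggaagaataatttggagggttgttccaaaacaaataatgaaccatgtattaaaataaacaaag
PTPRS to ZNRF4, chr19:5358359-5358458, plus strand: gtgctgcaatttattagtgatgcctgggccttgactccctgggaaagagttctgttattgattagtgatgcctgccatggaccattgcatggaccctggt
MYL4 to ITGB3, chr17:47229900-47229999, plus strand: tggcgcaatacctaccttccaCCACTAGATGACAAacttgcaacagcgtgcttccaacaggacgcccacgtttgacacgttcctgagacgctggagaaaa
TAAR8 to TAAR6, chr6:132568081-132568180, plus strand: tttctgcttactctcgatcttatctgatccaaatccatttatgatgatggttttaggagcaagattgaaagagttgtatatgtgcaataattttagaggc
ZCCHC24 to EIF5AL1, chr10:79467523-79467622, plus strand: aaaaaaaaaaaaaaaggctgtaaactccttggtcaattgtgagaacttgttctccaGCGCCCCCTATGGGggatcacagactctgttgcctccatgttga
The peak between RNF144B and ID4 had a score of 706, and that between PTPRS, a receptor phosphatase, and ZNRF4 a score of 501. The peak between MYL4 and the integrin gene ITGB3 (481) and that between ZCCHC24 and EIF5AL1 (431) contain matches with matrix scores of 3.37 and 3.83, within 22 bp of the summit. The peak between TAAR8 and TAAR6, receptors of trace amines, had a score of 437, and its best match scored -11.4. As a group, peaks with neither hit had a median score of 55 and a median GC content of 37.8%, against 130 and 43.2% for those with a CTCF hit.

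The peak with the highest score, between CFAP97D1 and MPP3, is shown over the 300 bp around its summit. Capitals mark the longest inverted repeat, whose arms of 30 bp are exact reverse complements of each other and are 46 bp apart.
CFAP97D1 to MPP3, chr17:43791622-43791921, plus strand: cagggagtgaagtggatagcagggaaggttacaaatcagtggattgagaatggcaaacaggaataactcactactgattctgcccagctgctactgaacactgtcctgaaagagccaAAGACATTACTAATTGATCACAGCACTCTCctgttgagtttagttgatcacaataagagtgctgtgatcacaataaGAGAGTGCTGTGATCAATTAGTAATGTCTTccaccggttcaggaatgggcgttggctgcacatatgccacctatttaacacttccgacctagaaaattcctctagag
Arms of 15 bp or more were found in 18 of the 7841 peaks, or 0.230% (95% interval 0.145 to 0.363), and in 0.671% of 37866 distal windows of 400 bp. These windows were not limited to sequence where reads map uniquely. Of the 20 distal dTAG-V1-only peaks with the highest scores, this peak was the only one with such arms.

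The 3 peaks with the highest scores among those with an SBS hit and no CTCF hit are shown with the hit in capitals and 15 bases on each side.
SBS2, IRF2BP2 to TOMM20, chr1:235083800-235083823, plus strand: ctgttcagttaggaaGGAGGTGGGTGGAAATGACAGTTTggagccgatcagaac
SBS1, CD9 to PLEKHG6, chr12:6278209-6278222, plus strand: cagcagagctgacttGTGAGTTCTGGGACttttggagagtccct
SBS2, SERPINB9 to SERPINB6, chr6:2932666-2932689, minus strand: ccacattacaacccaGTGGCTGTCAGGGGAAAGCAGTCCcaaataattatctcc
Their scores were 386, 311 and 305. None of the 3 hits passed p 1e-05, and they lay 60, 59 and 324 bp from the summit. The peak between IRF2BP2 and TOMM20, which encodes a receptor of the mitochondrial import machinery, and that between the serpins SERPINB9 and SERPINB6 also held a match to the CTCF matrix just under the threshold, with scores of 4.22 and 4.14.

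A count of 8-letter words within 100 bp of the peak centre, both strands together, needed no matrix. The words shown were picked by their rank in these same peaks, so that their excess over the flanks is partly built in. CCACTAGA is also the word from which the CTCF matrix was grown. AGAGGGCA was present in 5.66% of the distal dTAG-V1-only peaks and in 0.854% of the stretches 1 kb away. CCACTAGA was present in 4.68% and 0.485%, and AGGTGGCA in 4.63% and 0.905%. In the 3502 peaks lacking a CTCF hit, the words with the highest ranks were CAGCAGGA, in 2.60% of the peaks and 0.885% of the flanking stretches, TCATAAAA, in 3.91% and 1.74%, and CTCATAAA, in 2.68% and 0.971%. ATGAGTCA, which contains the AP-1 motif, ranked 6, in 1.74% and 0.514%.

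Short motifs of other transcription factors were counted in the same window and on both strands. The GATA motif AGATAA was present in 16.4% of the distal dTAG-V1-only peaks and in 13.8% of the stretches 1 kb away, a difference of 2.56 points (95% interval 1.44 to 3.68). In those without a CTCF hit it was present in 21.3% and 14.9%, a difference of 6.45 points (95% interval 4.65 to 8.25). In those with a CTCF hit, it was present in 537 peaks and in 562 flanks of 4339, and the interval of the difference included 0 (-1.98 to 0.824 points). GC content was not held equal in these contrasts. Its median was 37.8% in peaks with neither hit and 43.2% in those with a CTCF hit. The AP-1 motif TGANTCA was present in 8.40% of the peaks without a CTCF hit and 5.91% of their flanks, a difference of 2.48 points (95% interval 1.28 to 3.70). Over all 7841 peaks, the difference for AP-1 was 0.842 points (95% interval 0.0710 to 1.61). The GC box GGGCGG was present in 6.66% of the peaks with a CTCF hit and 3.39% of their flanks, a difference of 3.27 points (95% interval 2.36 to 4.20). Positions 9 to 14 of the CTCF matrix can themselves spell GGGCGG, so choosing peaks by a CTCF hit favours this word. In those without a CTCF hit it was present in 2.83% and 3.26%, and the interval of the difference included 0 (-1.24 to 0.380 points). The octamer ATGCAAAT was less frequent in the peaks than in the flanks, at 1.25% and 1.89%, a difference of -0.638 points (95% interval -1.03 to -0.249). The ETS motif ACTTCCGG was present in 18 peaks, or 0.230%, and in 0.0893% of the flanks. For the CCAAT box ATTGGC, the E-box CACGTG, the TEAD motif GGAATG, the CRE TGACGTCA, the RUNX motif TGTGGTT and the SOX motif ACAATGG, the interval of the difference over all 7841 peaks included 0. The GATA motif was also more frequent than in flanks in distal shared peaks, by 4.72 points (95% interval 3.14 to 6.28). The GC box (3.90 points, 95% interval 2.88 to 4.94) and ETS (0.270 points, 95% interval 0.0259 to 0.541) were more frequent there as well. For AP-1 and the octamer, the intervals in distal shared peaks included 0. In intronic dTAG-V1-only peaks, the differences were 3.32 points for GATA (95% interval 2.24 to 4.41) and 0.920 for AP-1 (95% interval 0.172 to 1.67). For the octamer it was -0.526 points there (95% interval -0.871 to -0.187). The intronic intervals included 0 for the GC box and ETS, and excluded it for RUNX (1.04 points). In distal untreated-only peaks, the AP-1 difference was 5.57 points.

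The CTCF hits of these peaks were close to those of the intronic dTAG-V1-only peaks in strength. Of the 4339 hits, 52.5% reached the matrix score that corresponds to p 1e-06, against 52.2% in the intronic peaks, 46.6% in the distal shared peaks and 4.84% of the hits in distal windows. The difference from the intronic peaks had an interval that included 0 (0.275 points, 95% interval -1.84 to 2.39), and that from the distal shared peaks did not (5.86 points, 95% interval 3.04 to 8.66). At p 1e-05, 3344 peaks contained 1305 distinct sequences at their best hit. The most frequent, CCACTAGATGGCAG, was found in 49 of them, or 1.47%, and in 4 of the 1142 distal shared peaks with a hit at p 1e-05, or 0.350%. It was picked for its frequency in the dTAG-V1-only peaks, and other frequent sequences went the other way. CCAGCAGAGGGCAG was found in 1.14% and 1.58%, CCACCAGGGGGCAG in 0.927% and 1.23%, and CCAGCAGAGGGCGC in 0.867% and 1.14%. More than 1 hit at p 1e-05 was present in 121 of the 7841 peaks, or 1.54%, and in 3.07% of the distal shared peaks. Distal shared peaks were wider, and this share was not computed at equal width.

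The letters of these hits differed from those of distal shared peaks. A CpG, the dinucleotide at which DNA is methylated, was present in 30.0% of the 3344 hits and in 39.1% of the 1142 hits of distal shared peaks, a difference of -9.06 points (95% interval -12.3 to -5.86). The CpG of positions 12 and 13 accounted for most of these, present in 24.4% and 31.6%. In the intronic dTAG-V1-only peaks, 25.8% of the hits held a CpG, a difference of 4.18 points in the opposite direction (95% interval 2.01 to 6.34). At position 9, T was present in 47.2% of the hits and in 39.9% of those of distal shared peaks. At position 5, T was present in 38.7% and 32.0%. The methylation of these sites was not measured.

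The direction of the hits depended on the distance to the next one of the same class. Pairs were formed within each class, so that CTCF hits in peaks of other classes can lie between the hits of a pair. Neighbouring hits at p 1e-05 on the same chromosome form a convergent pair when they point towards each other, a divergent pair when they point away from each other, and otherwise a pair in 1 direction. Convergent and divergent pairs made up 26.0% and 25.9% of all 3321 pairs. Their numbers are bound to be nearly equal, since they alternate along a chromosome. Among the 600 pairs that lay 10 to 100 kb apart, 206 were divergent, or 34.3% (95% interval 30.6 to 38.2), and 116 convergent, or 19.3% (95% interval 16.4 to 22.7). For hits in the distal windows at the same distances, the shares were 23.8% and 24.3% of 4335 pairs. The differences were 10.5 points for divergent pairs (95% interval 6.62 to 14.6) and -4.98 points for convergent pairs (95% interval -8.21 to -1.40).

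Between 100 kb and 1 Mb, 27.8% of the 1724 pairs were convergent (95% interval 25.7 to 29.9) and 24.7% divergent. Over 1 Mb, 28.8% of 860 pairs were convergent and 21.7% divergent (95% interval 19.1 to 24.6). Of the 137 pairs under 10 kb, 14.6% were convergent and 29.9% divergent. The intronic dTAG-V1-only peaks gave like values, with 33.0% divergent and 19.2% convergent pairs at 10 to 100 kb, and the intervals of the differences included 0 at each distance for both kinds of pair. With hits at p 5e-05, the divergent share over 1 Mb was 20.5% against 24.8% in the intronic peaks, with an interval of -8.43 to -0.200 points. The distal shared peaks had 112 pairs at 10 to 100 kb, of which 25.0% were divergent, and the interval of the difference from the dTAG-V1-only peaks included 0 (9.33 points, 95% interval -0.170 to 17.4). Pairs next to each other share a hit and are not independent.

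**Figure D4:**
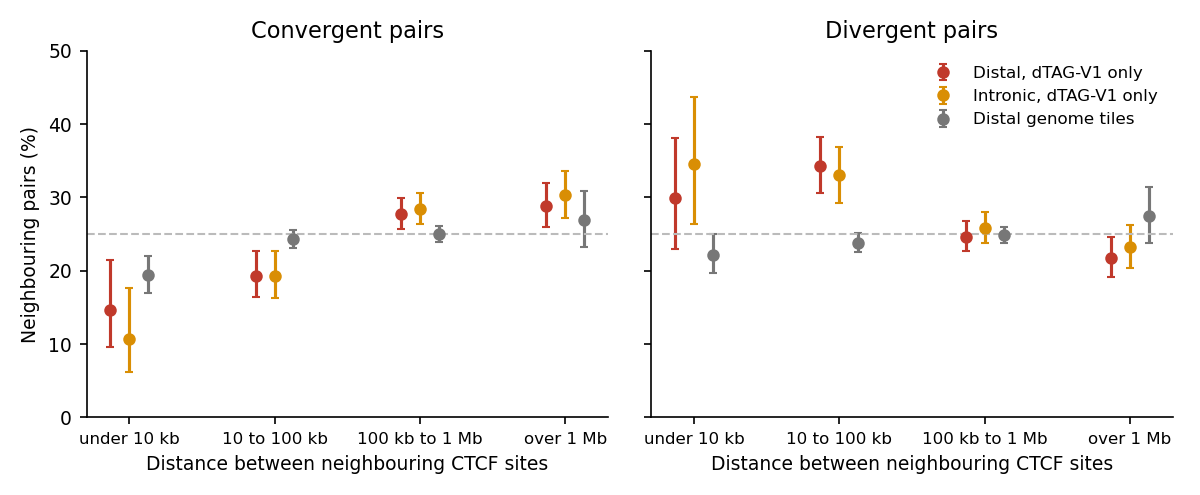
Share of neighbouring CTCF hits (p 1e-05) that form convergent pairs (left) and divergent pairs (right), in percent on the y axes, by distance between the hits on the x axes. Neighbours are taken within each set, and hits in other peaks can lie between them. Points are shares, bars are 95% Wilson intervals and the dashed line is at 25%. At 10 to 100 kb, 34.3% of the pairs of distal dTAG-V1-only peaks are divergent and 19.3% convergent, whereas the distal windows lie at 23.8% and 24.3%.

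The peaks were closer to genes than the distal windows were. The median distance to the nearest TSS of a protein-coding gene was 53.3 kb (quartiles 19.3 and 170 kb), against 169 kb in the distal windows, 57.3 kb in distal shared peaks and 77.3 kb in distal untreated-only peaks. It was 41.6 kb for peaks with a CTCF hit and 79.7 kb for those with neither hit. A TSS lay within 10 kb in 13.7% of the peaks and 6.35% of the windows. Distances over 500 kb were found for 684 peaks, or 8.72%, and for 24.2% of the windows. The windows were not limited to sequence where reads map uniquely, as the reads behind the peaks were. From the TSS of any gene, 3.41% of the windows and 0.0765% of the peaks lay over 500 kb away. The effect of this on the contrast was not tested. The centre lay in a noncoding gene in 27.2% of the peaks (95% interval 26.2 to 28.2), against 28.4% of the windows, a difference of -1.23 points (95% interval -2.21 to -0.225). For long noncoding RNA genes alone, the shares were 25.9% and 26.9%, and the interval of the difference included 0 (-1.95 to 0.00799 points).

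The median GC content of the peaks was 41.0% (quartiles 35.5% and 47.2%), against 41.7% in the stretches 1 kb away, 39.3% in the distal windows and 43.2% in the distal shared peaks. The observed over expected ratio of CpG dinucleotides had a median of 0.235 in the peaks and 0.196 in the flanks, and it exceeded 0.6 in 6.01% of the peaks. The median gap from a peak to the next of its class was 55.0 kb, and 16.5% had another within 10 kb. The nearest untreated peak lay at a median of 34.5 kb and at most 3540 kb.

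Chromosomes differed in both number and sequence of these peaks. Over all chromosomes there were 5.17 per Mb of distal sequence, with a range from 2.27 on chromosome 2 to 8.81 on chromosome 19. The share of distal peaks of the list that belonged to this class varied less, from 52.1% on chromosome 22 to 71.3% on chromosome 4. CTCF hits were present in 75.2% of the 274 peaks on chromosome 11 (95% interval 69.7 to 79.9) and in 31.5% of the 495 peaks on chromosome 13 (95% interval 27.6 to 35.7), the lowest of the 23 chromosomes. Chromosome 13 had 7.95 of these peaks per Mb and the lowest median fold enrichment, 2.23, and the lowest median score, 58. Distal shared peaks (3.82 per Mb) and distal untreated-only peaks (2.52 per Mb, the highest of any chromosome) were also dense there, and 37.6% of its 250 intronic dTAG-V1-only peaks had a CTCF hit.

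Within the lower score deciles, 6 to 10, 17.8% of the 377 peaks of chromosome 13 had a CTCF hit against 39.1% on the other chromosomes, a difference of -21.4 points (95% interval -25.2 to -16.9). In deciles 1 to 5 the shares were 75.4% of 118 and 82.8%, a difference of -7.41 points (95% interval -16.0 to -0.384). These groups of deciles are broad and do not hold the score equal. Over all chromosomes, the CTCF share was 65.3% in decile 6 and 14.4% in decile 10, and chromosome 13 had the lowest median score. Without chromosome 13, the CTCF share over all other chromosomes was 56.9%.

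**Figure D5:**
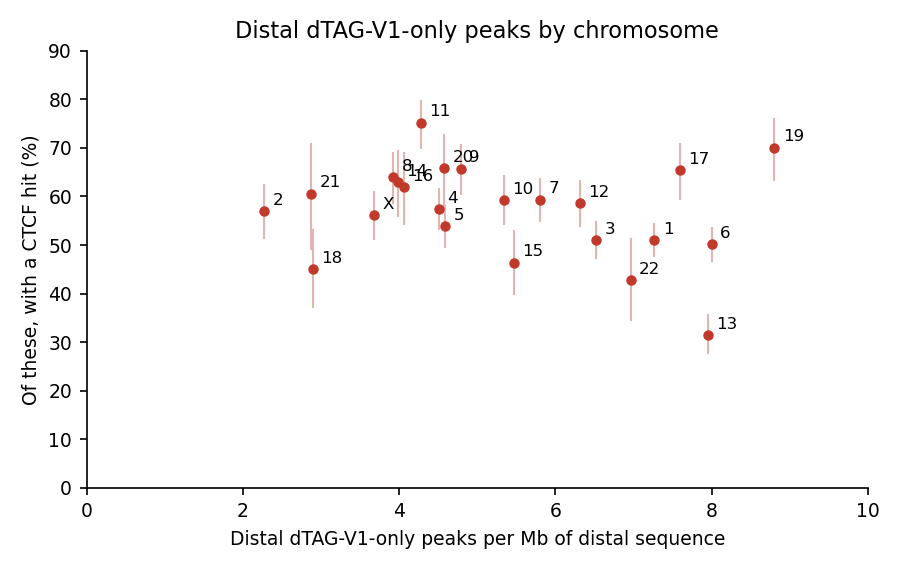
Distal dTAG-V1-only peaks per Mb of distal sequence (x axis) and percentage of them with a CTCF hit at p 5e-05 (y axis) for 23 chromosomes, labelled by number. Bars are 95% Wilson intervals. Chromosome 13 combines a high density, 7.95 per Mb, with the lowest CTCF share, 31.5%, and chromosome 11 has the highest share, 75.2%.

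The peaks were spread over 4004 of the 15651 intervals between protein-coding genes, and 58 intervals with 10 or more held 911 of them, or 11.6%. Of the 12 intervals with the most peaks, 7 lay on chromosome 13. The interval between ENSG00000197991 and ENSG00000237378 held 54 in 2.32 Mb, of which 11 had a CTCF hit. The interval between SLITRK5 and GPC5, a glypican gene, held 38 in 3.70 Mb, of which 5 had one. SLITRK genes encode transmembrane proteins of neurons, and the intervals between SLITRK1 and SLITRK6 (26 peaks), between SLITRK6 and SLITRK5 (25) and between SPRY2, an inhibitor of receptor tyrosine kinase signalling, and SLITRK1 (23) were also among them. The intervals on both sides of the protocadherin gene PCDH9, towards KLHL1 and towards ENSG00000285566, held 30 and 24 peaks, of which 6 and 2 had a CTCF hit.

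Away from chromosome 13, the interval between ZPLD1 and the cell adhesion gene ALCAM on chromosome 3 held 21 peaks, of which 8 had a CTCF hit. The interval between SLC35B3 and the transcription factor gene TFAP2A on chromosome 6 held 21, of which 7 had one. The interval between the neuropeptide gene NPVF and NFE2L3 on chromosome 7 also held 21, in 0.924 Mb, which made it denser, at 22.7 per Mb, than those on chromosomes 3 and 6. The interval between the adhesion receptor genes ADGRL4 and ADGRL2 on chromosome 1 held 19, of which 2 had a CTCF hit. The interval between the potassium channel gene KCNJ2 and SOX9, a transcription factor of cartilage and testis, held 19, of which 8 had one, next to 18 distal shared peaks. In all, 3681 of the 7841 peaks, or 46.9%, lay in intervals without any distal shared peak. The same share was not computed for the distal windows or another class, so that it shows nothing particular to these peaks.

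Of 40 genes known for control over long distances, 39 had at least 1 distal dTAG-V1-only peak in the intervals beside them, and HOXD1 had none. These intervals add up to as much as 3.46 Mb for a gene, and the same count over all other genes was not made, so that it shows nothing particular to the list. NR2F2, a nuclear receptor gene, had 32 in 3.46 Mb, of which 4 contained a CTCF hit. SOX9 had 22, of which 9 contained one. NR2F1 had 14 (5 with a CTCF hit), GATA3 11 (4), SOX4 11 (1) and ZEB2 10 (0). MEIS1, POU3F2 and TBX3 had 9 each, of which 3, 4 and 4 contained a CTCF hit.

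Clustered gene families differed in how many of these peaks they held, with small counts in each. Intervals with an olfactory receptor gene on both sides held 13 in 12.7 Mb, or 1.02 per Mb, of which 9 had a CTCF hit. Those between zinc finger genes held 15 in 13.4 Mb, or 1.12 per Mb. Between keratin genes there were 6, or 2.88 per Mb, between beta-defensin genes 2, or 3.90 per Mb, and between histone genes 1, or 4.22 per Mb. Between HOX genes, serpin genes and interferon alpha genes there were 3 each, at 29.7, 6.59 and 13.7 per Mb, above the 5.17 per Mb of all distal sequence. None lay between protocadherin or globin genes, whose intervals add up to 0.154 and 0.0199 Mb. Of the loci of antigen receptor segments, the immunoglobulin lambda locus held 9 in 0.892 Mb, or 10.1 per Mb, the T cell receptor beta locus 5, or 9.76 per Mb, and the alpha locus 4, or 4.30 per Mb. The immunoglobulin heavy and kappa loci, of 1.29 and 1.38 Mb, and the T cell receptor gamma locus held none.

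Noncoding genes with at least 1 of these peaks in their body numbered 1581, of which 40 held 5 or more. HULC, a long noncoding RNA gene of 859 kb in this annotation, and LINC02240 held 13 each, of which 5 and 2 contained a CTCF hit. MIR99AHG, the host gene of a microRNA cluster, held 11 in 718 kb. LINC01091 held 9. The unnamed gene ENSG00000285280, LINC-PINT, LINC02945 and PKN2-AS1 held 8 each, of which 4, 4, 5 and 3 contained a CTCF hit. LINC02945 and LINC-PINT were the densest of these 8, at 26.0 and 25.1 per Mb.

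The rule that chose the peaks has a sharp edge. A peak at chr3:148788249-148789346, with a score of 50, directly abutted an untreated peak, with 0 bp between them, and counted as found only with dTAG-V1. Peaks at chr8:61023340-61024075 (score 143) and chr21:26835306-26835959 (57) lay 7 and 10 bp from an untreated peak. Just outside the rule, distal peaks at chr10:117175520-117176217 (131), chr6:27791260-27791712 (71) and chr11:27019004-27019259 (24) shared 1, 10 and 14 bp with one. In all, 31 of the 7841 peaks lay within 100 bp of an untreated peak and 264 within 1 kb. The centre of 150 lay in the TSS window of an annotated transcript that starts elsewhere than its gene.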

How the data were processed

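ChIP-seq with the Proteintech antibody was performed by the authors on 4 untreated samples and 4 samples treated with dTAG-V1. According to the methods, the authors mapped reads to hg38 with bwa mem, kept properly paired reads with a mapping quality above 10, removed duplicates with Picard, and called narrow peaks with MACS2 at a q-value threshold of 0.01, with no control library named. A replicate rule is also stated (each of 4 untreated, any of 4 dTAG-V1). Whether it was applied to the lists used here is not stated, and a stricter rule for untreated cells would by its construction leave more peaks without an overlap. The names of the untreated peaks refer to DMSO, whereas the labels say untreated, which was followed.

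The deposited lists hold a score, a fold enrichment (a ratio over the local background), a −log10 q-value and a summit per peak. The score was computed by the authors from the −log10 q-value, and all are on the scale of their own list. Depth is unknown. The number of per-sample columns left unused is 0.

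Genes were taken from GENCODE release 44 and sequence from hg38. Overlaps were computed at a minimum of 1 bp in pandas 2.3.3 and numpy 2.4.6 (Python 3.11.15). Sequence was read with pysam 0.24.0, matrices were scanned with numba 0.67.0, intervals came from statsmodels 0.14.6 and rank correlations from scipy 1.17.1. Matrices were grown from 8-letter words (CCACTAGA, ATTATGGG, AATGTAGT) over 10 iterations within 150 bp of the summits, with a pseudocount of 0.8 and sites at p 1e-06 (SBS1 1e-05). CTCF was learned from dTAG-V1 peaks outside the described class, and SBS1 and SBS2 from the untreated list. These learning thresholds were set after the letters of the matrices had been looked at. Hits were called at p 5e-05, the default of the tool named in the methods, and at 1e-05, given genome base frequencies. The scripts were tested on simulated data.

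The class, the gene lists and the motifs were chosen with earlier results of these data known. No p-values were computed, since the lists hold 1 value per condition. Named peaks are the 10 with the highest score, the 10 best CTCF hits among the 20 highest, the 5 highest with neither hit and the 3 highest with an SBS hit only. Named genes flank the 12 fullest intervals, are the 8 noncoding genes with most peaks, or belong to the long-range list (8 with most peaks, ties included). Some of the regions and genes that this rule names are not reported here.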

Additional observations from a re-analysis of the deposited data

How the results depend on the processing

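Of 151 values recomputed under an alternative, 113 stayed within 1.5 times the count, inside the interval, or on the same side of 0, and 33 moved. In the other 5, the interval of a difference came to include or to exclude 0. No direction was reversed. Overlap of 50% of each peak moved the share of distal peaks without an untreated overlap to 73.6%, the SBS share to 17.9% and the CTCF hits within 50 bp of the summit to 83.5%. Counting peaks within 1 kb as shared gave 63.6% without overlap. With a −log10 q-value of at least 5, the CTCF share was 65.8%, the SBS share 17.2%, the summit share 86.9%, the TSS distance 47.5 kb, the GC content 42.0% and the median matrix score 17.4. Leaving out the bodies of all genes gave a CTCF share of 57.0%, a TSS distance of 45.8 kb and, by construction, 0% in noncoding genes. TSS windows of 10 kb left 5083 peaks, with a CTCF share of 53.3%, an SBS share of 14.7%, 25.1% in noncoding genes, a distance of 81.2 kb, a GC content of 39.7% and a CTCF difference from intronic peaks of 1.48 points, whose interval included 0. Hits at p 1e-05 gave shares of 42.6% and 4.22%, a summit share of 88.3% and a median matrix score of 18.5. Hits within 100 bp of the summit gave 52.2% and 8.72%, and windows of 400 bp an SBS share of 17.8%. With matrices from odd-numbered autosomes, the CTCF share was 56.5%, the SBS share 28.0% and the matrix score 16.8, so that the SBS share depends on how its matrices are learned.

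The SBS difference from intronic peaks excluded 0 at 50% overlap (1.20 points), without bodies of all genes (1.21), with odd-numbered autosomes (2.01) and with TSS windows of all transcripts (1.39), an alternative chosen after seeing the data that also gave 25.7% in noncoding genes. Without chromosome 13, likewise chosen after seeing the data, the CTCF share was 56.9%, the TSS distance 49.0 kb and the GC content 41.3%. The causes of these shifts were not tested. Of 66 recomputed differences between classes, 61 kept their direction and their interval's position relative to 0. No paired analysis was possible because the lists carry no replicate numbers. The share in repeat sequence was not computed, since the reference used here does not mark repeats.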
